A study of Mus musculus with 4 samples.

Results

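The tripartite motif (TRIM) genes were followed in CD45+ cells from mouse melanomas by single-cell RNA sequencing. Members were all genes whose symbol is Trim, a number and at most 1 letter, which gave 43 of the 12584 genes in the count table. A list of 15 TRIM genes known from general knowledge to be interferon-inducible split them: 13 of the 15 had a row (Trim34b and Trim38 had none), and the other 30 members are called the other members. The tumours were YUMM1.7-OVA RTT, a Braf-mutant, Cdkn2a-/- melanoma line that expresses ovalbumin and is resistant to targeted therapy. They grew in Rag2-/- mice, hosts without own lymphocytes of the T and B lineages, received adoptive cell therapy with OT-1 T cells on day 7 and were collected on day 10, 72 h later. There were 4 libraries, 1 per group, each a pool of 3 tumours: RTT with an mCherry vector (CTRL), RTT overexpressing IRF3 and IRF7 (IRF3/7), mCherry RTT treated with celecoxib, a COX2 inhibitor (COX2i), and mCherry RTT treated with celecoxib and 5-azacytidine, a DNA methyltransferase inhibitor (COX2i + 5-AZA). IRF3 and IRF7 were introduced into the cancer line. The sort was for CD45+ cells, but a non-immune class annotated Myofibrobl remained, and whether it holds cancer cells was not tested.

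Most TRIM proteins carry a RING domain with ubiquitin ligase activity, B-boxes and a coiled coil, and many end in a SPRY domain that binds the target. Some, such as Trim14, Trim16, Trim44 and Trim66, lack the RING domain. Several act in innate immunity: Trim25 ubiquitinates the RNA sensor RIG-I, Trim14 and Trim56 act in the MAVS and STING pathways, and Trim21 binds the Fc part of antibodies that enter the cytosol on a virus. Type I interferon induces many of these genes through the interferon-stimulated response element (ISRE). Others are better known from other roles, such as Trim28, the corepressor of zinc finger proteins, which also acts on IRF7, Trim37, which acts on centrosomes, and Trim2, a neuronal ligase.

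A window of 250 bases before to 50 bases after the RefSeq start (GRCm38.p6) was at hand for 33 of the 43 members. The ISRE core, GAAANNGAAA on either strand, occurred in 7 of 12 windows of interferon-inducible members (58.3%) and in 1 of 21 windows of other members (4.76%), against 3.21% of 9982 windows over genes of the table. The 7 were Trim12a, Trim12c, Trim21, Trim26, Trim30a, Trim30d and Trim34a, and the single other member was Trim5, which lies between Trim34a and Trim12a. The interferon-γ site core, TTCNNNGAA, was in 1 of 12 (Trim30c) and 1 of 21 (Trim45), against 6.88% of windows of the table. Neither core was in the windows of Trim30b, Trim25, Trim56, Trim6 or Trim69. A match of letters is a description and not a shown binding site.

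Of the windows with an ISRE core, 4 are given because their genes were among those with the widest differences between libraries, with the core in capitals. In Trim21 (chr7:102565433-102565732, minus strand) 2 overlapping cores began 13 and 19 bases after the first base of the gene. In Trim34a (chr7:104244207-104244506, plus strand) the core was on the opposite strand, 10 bases after it. In Trim30a (chr7:104465144-104465443, minus strand) and Trim30d (chr7:104507800-104508099, minus strand) it was also on the strand opposite to the gene, 36 and 41 bases before the start.
Trim21: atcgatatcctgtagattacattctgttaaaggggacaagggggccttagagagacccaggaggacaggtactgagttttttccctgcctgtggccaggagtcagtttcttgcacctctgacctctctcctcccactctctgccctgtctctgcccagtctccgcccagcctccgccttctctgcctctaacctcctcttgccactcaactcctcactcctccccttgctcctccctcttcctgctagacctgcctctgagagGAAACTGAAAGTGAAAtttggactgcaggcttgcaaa
Trim34a: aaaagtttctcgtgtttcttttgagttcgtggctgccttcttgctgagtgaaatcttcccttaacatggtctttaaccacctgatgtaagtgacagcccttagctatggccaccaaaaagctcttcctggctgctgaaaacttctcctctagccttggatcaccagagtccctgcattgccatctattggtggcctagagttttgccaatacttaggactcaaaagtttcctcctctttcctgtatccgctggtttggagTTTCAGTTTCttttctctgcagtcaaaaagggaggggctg
Trim30a: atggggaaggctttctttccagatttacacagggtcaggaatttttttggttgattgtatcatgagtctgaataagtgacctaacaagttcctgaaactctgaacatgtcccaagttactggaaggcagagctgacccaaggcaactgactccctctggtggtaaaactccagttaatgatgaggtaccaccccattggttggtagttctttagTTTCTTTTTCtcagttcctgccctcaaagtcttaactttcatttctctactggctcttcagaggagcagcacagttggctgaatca
Trim30d: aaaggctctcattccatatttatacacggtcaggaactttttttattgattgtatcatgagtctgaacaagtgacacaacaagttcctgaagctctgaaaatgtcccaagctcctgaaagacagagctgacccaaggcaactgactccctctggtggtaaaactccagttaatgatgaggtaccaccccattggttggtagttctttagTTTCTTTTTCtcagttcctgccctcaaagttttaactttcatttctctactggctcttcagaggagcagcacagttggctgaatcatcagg

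The Trim30a and Trim30d windows were identical at 276 of 295 aligned bases (93.6%). Trim30a and Trim30c, which has no ISRE core in its window, matched at 81.4%, and Trim30a and Trim30b at 30.4%. Trim12a and Trim12c matched at 72.3%. As contrasts, the windows of Trim69 (chr2:122160458-122160757, plus strand), which differed with 5-azacytidine, and Trim41 (chr11:48817342-48817641, minus strand), which stood nearly level in all libraries, are given with no capitals, as neither holds either core.
Trim69: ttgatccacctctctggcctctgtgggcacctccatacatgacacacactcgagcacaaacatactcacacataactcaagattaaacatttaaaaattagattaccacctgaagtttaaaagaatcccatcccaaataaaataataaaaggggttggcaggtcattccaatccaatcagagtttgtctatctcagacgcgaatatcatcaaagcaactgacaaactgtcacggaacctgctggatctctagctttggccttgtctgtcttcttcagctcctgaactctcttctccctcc
Trim41: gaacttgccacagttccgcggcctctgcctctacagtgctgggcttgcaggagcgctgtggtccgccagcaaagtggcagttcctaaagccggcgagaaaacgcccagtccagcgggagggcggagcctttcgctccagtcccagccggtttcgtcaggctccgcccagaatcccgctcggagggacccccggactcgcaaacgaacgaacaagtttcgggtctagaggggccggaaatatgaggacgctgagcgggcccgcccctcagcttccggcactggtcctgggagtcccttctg

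The Trim69 window held 4 CpG dinucleotides and the Trim41 window 25, against a median of 7 over all windows. Of all windows 38.3% had as few as Trim69 or fewer. The window of Trim13, a member that also stood nearly level, held 1, and that of Trim30a 0. These counts were added after the values of Trim69 were seen, and methylation was not measured in these data.

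Levels are UMI sums over cells divided by all UMIs of those cells and given in the usual unit of CPM, with exact Poisson 95% intervals, and differences are log2 ratios with exact conditional 95% intervals. All intervals cover counting error only: with 1 library per group there was no replicate check and no test between conditions, and each difference is one between 2 libraries. A member was counted as higher or lower at 2-fold or more, when its UMIs in the pair of libraries summed to 20 or more. The assay counts ligated probe pairs, so a gene is compared only with itself, and genes with near-identical copies (Trim30a to Trim30d, Trim12a and Trim12c, Trim34a, Trim5) are uncertain to the extent that probes bind a copy. The 4 libraries held 8953 (CTRL), 6329 (IRF3/7), 9133 (COX2i) and 10032 (COX2i + 5-AZA) cells, with a median of 6151, 3168, 7502 and 6039.5 UMIs per cell. Among monocytes and macrophages, the population summed below, monocytes made up 1.83% in CTRL, 91.3% in IRF3/7, 7.56% in COX2i and 53.2% in COX2i + 5-AZA. A ratio over that population therefore sets mostly macrophages against mostly monocytes in IRF3/7, and fewer cells of a type and less RNA per cell cannot be told apart in it. Of markers outside CD8 T cells, 36 of 37 were highest in their own annotated class. The exception was Ccr2 (highest in TAM_Spp1), 1 of the 2 monocyte markers with a row. The authors named the classes with the help of known markers, so this is no independent check of them. All 4 CD8 T markers were highest in the class annotated T_CD8, but its 16 cells were too few for the minimum of 50 and were not described.

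Interferon-inducible members made up a larger part of the TRIM message in IRF3/7 than elsewhere. Their summed level in monocytes and macrophages was 481 CPM in CTRL, 2352 in IRF3/7, 495 in COX2i and 695 in COX2i + 5-AZA. The other members summed to 872, 481, 945 and 740 CPM in the same order, so that they were lower than CTRL in IRF3/7 and COX2i + 5-AZA, while in COX2i both groups were close to CTRL. The interferon-inducible share of all TRIM UMIs was 35.6% in CTRL, 83.0% in IRF3/7, 34.4% in COX2i and 48.4% in COX2i + 5-AZA.

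In IRF3/7 against CTRL, 14 of 42 members stood at least 2-fold higher and 11 at least 2-fold lower. Over all 11793 genes tested, 9.16% were as much higher and 32.2% as much lower, and the median gene stood at -0.55. With median-of-ratios size factors, which brought that median to -0.03, 17 members were higher and 7 lower, against 15.3% and 19.8% of all genes. With the class mix of CTRL, which could be had for Infl_Mono alone, 1 of 38 was higher and 5 were lower, against 6.17% and 17.3% of 9996 genes. Of the 13 interferon-inducible members 12 were higher and 0 lower, with a median log2 ratio of 2.05 and a range of 0.70 to 4.83. Within Infl_Mono alone their median was 0.56. Of 29 other members 2 were higher and 11 lower, with a median of -0.85. The lower side of the other members was thus near the background of all genes. In this pooled ratio the higher side of the interferon-inducible members was above it. Within Infl_Mono 1 of 13 was higher. That class held 93 of the 7614 monocytes and macrophages of CTRL, so a ratio at the true class mix of CTRL could not be taken.

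**Figure D1:**
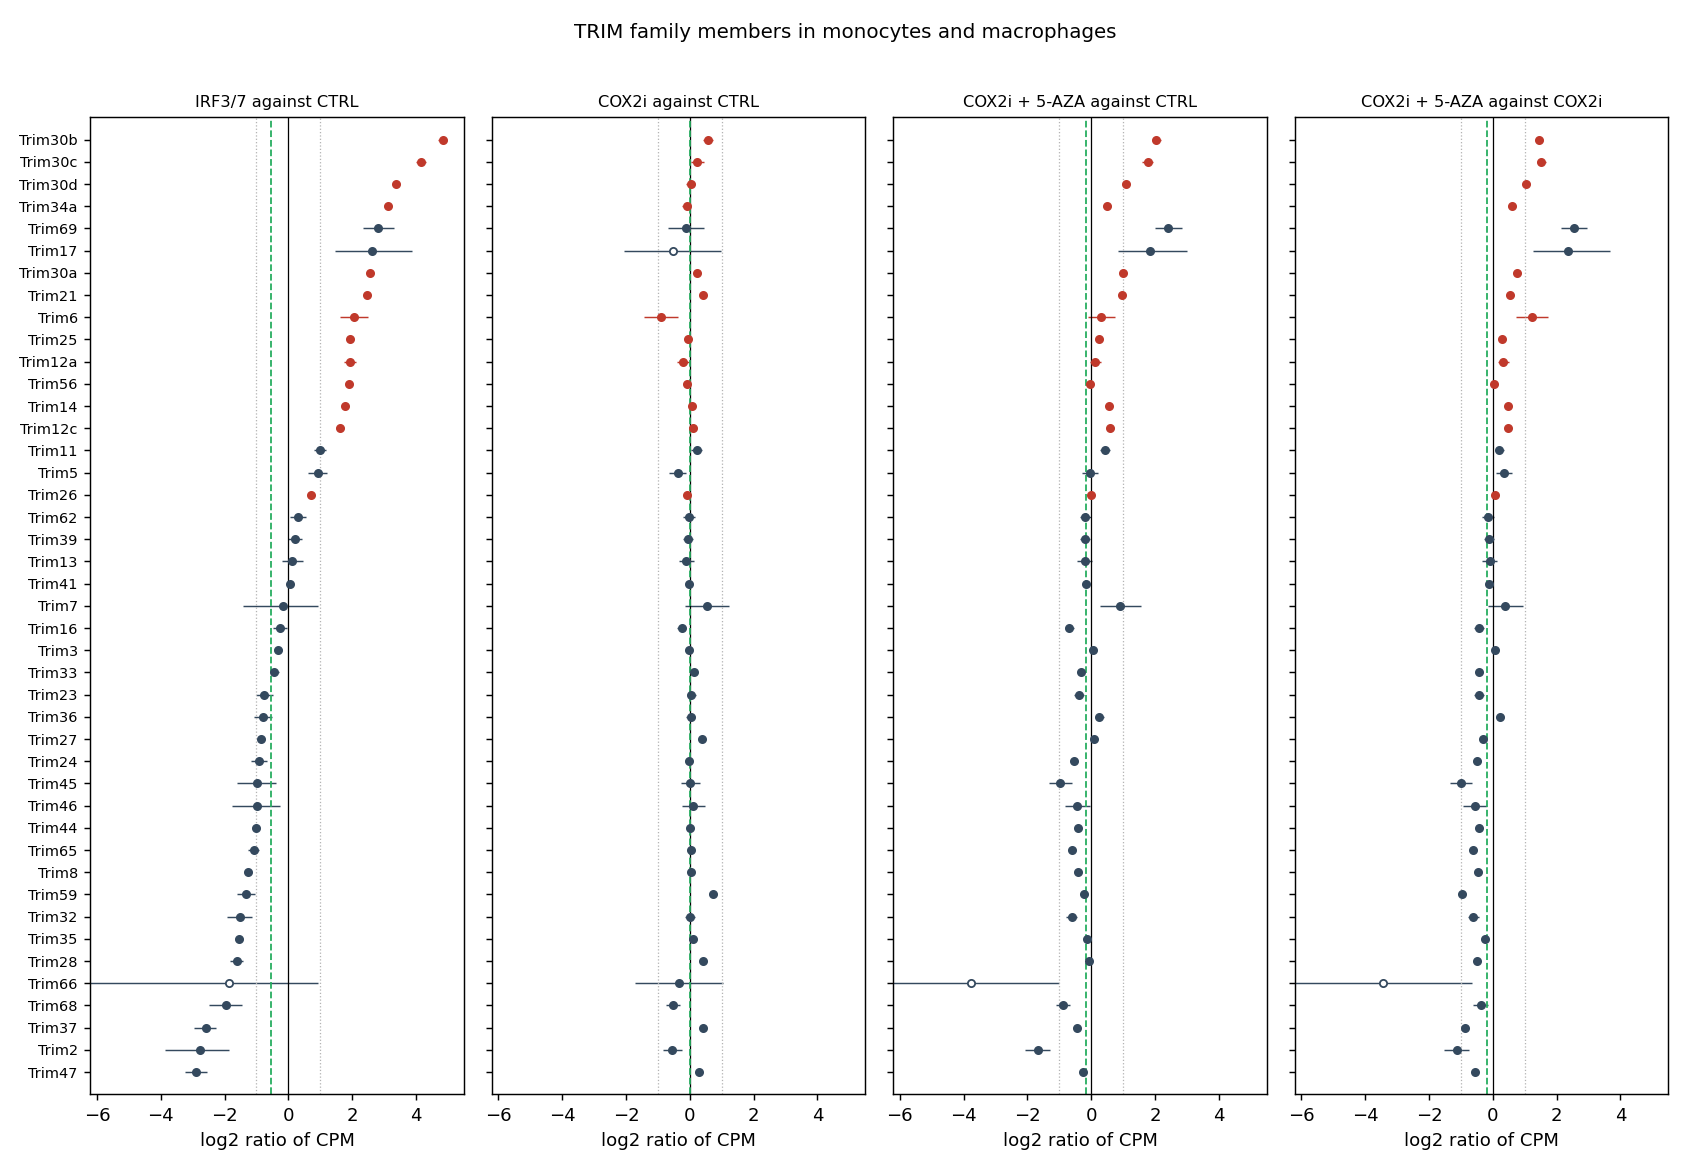
Log2 ratio of each TRIM member in monocytes and macrophages in the 4 comparisons, with exact 95% intervals for counting error as bars (cut at the panel edge for Trim66). Red marks interferon-inducible members, dark the others, hollow points fewer than 20 UMIs, the green dashed line the median of all genes and dotted lines 2-fold; all 13 red points lie above 0 in the IRF3/7 panel and in the panel that sets COX2i + 5-AZA over COX2i.

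The widest differences were in the Trim5-like cluster on chromosome 7 (GRCm38, chr7:104218795-104507853 from Trim6 to Trim30d), whose products include relatives of the retroviral restriction factor TRIM5. It holds 9 members, 8 of them on the interferon list, and all 8 were at least 2-fold higher in IRF3/7 against CTRL (9.16% of all genes were). Trim30b was at 8.98 CPM in CTRL, 256 in IRF3/7, 13.4 in COX2i and 36.6 in COX2i + 5-AZA. It was the lowest in CTRL and the highest in IRF3/7, 28.5-fold above CTRL (log2 4.83, 4.70 to 4.97). Trim30c was at 7.01, 124, 8.27 and 23.8 CPM in the same order, a log2 ratio of 4.15 (3.99 to 4.31) in IRF3/7. Trim30d was at 15.6, 162, 15.9 and 33.0 CPM (3.38, 3.27 to 3.49). Trim30a, which is known to dampen NF-κB signalling through TAB2 and TAB3, was at 50.5, 298, 59.0 and 99.5 CPM (2.56, 2.50 to 2.63). Thus the 4 copies of Trim30 had the same order of libraries, with COX2i + 5-AZA second.

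Trim34a was at 15.9 CPM in CTRL, 137 in IRF3/7, 14.8 in COX2i and 22.4 in COX2i + 5-AZA (log2 3.11 in IRF3/7 against CTRL, 3.00 to 3.23). Trim12a was at 8.09, 30.7, 7.02 and 8.84 CPM, and Trim12c at 19.4, 59.6, 20.9 and 29.1 CPM. Within Infl_Mono alone the log2 ratio of Trim12c in IRF3/7 against CTRL was -0.03. Trim6, a ligase that makes unanchored ubiquitin chains for IKKε, was low throughout, at 1.50, 6.22, 0.80 and 1.87 CPM. Its COX2i level was the lowest of the 4, and its log2 ratio in COX2i against CTRL was -0.91 (-1.45 to -0.38). Trim5, the member of the cluster that was not on the list, was at 4.70, 8.90, 3.61 and 4.59 CPM, and its ratio in IRF3/7 of 0.92 (0.63 to 1.21) stayed inside 2-fold.

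**Figure D2:**
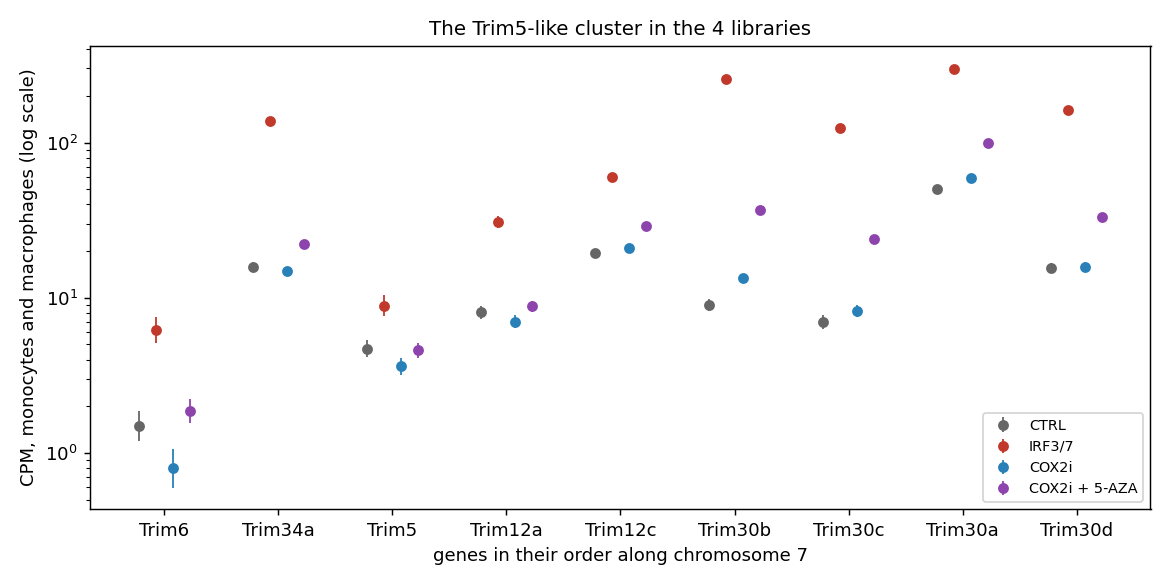
Levels of the 9 members of the chromosome 7 cluster in monocytes and macrophages of each library, in CPM on a log axis, with exact Poisson 95% intervals as bars. IRF3/7 is the highest library for each of the 9, and COX2i + 5-AZA lies second for Trim30b (36.6 CPM), Trim30c (23.8), Trim30a (99.5) and Trim30d (33.0).

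Among the 12 members tied to innate sensing, 4 were at least 2-fold higher in IRF3/7 against CTRL and 3 lower, against 9.16% and 32.2% of all genes. The 4 were all on the interferon list. Trim25 was at 179 CPM in CTRL, 689 in IRF3/7, 171 in COX2i and 211 in COX2i + 5-AZA (1.94, 1.91 to 1.98). Trim21 was at 26.5, 145, 35.6 and 51.7 CPM (2.46, 2.36 to 2.55). Trim14 was at 62.7, 215, 66.4 and 91.9 CPM (1.78, 1.71 to 1.84), a ratio that was -0.32 within Infl_Mono alone. Trim56 was at 42.4, 157, 40.3 and 41.0 CPM (1.89, 1.81 to 1.97), with COX2i + 5-AZA next to COX2i and CTRL. Trim26 was the 1 interferon-inducible member inside 2-fold, at 43.7, 71.2, 41.2 and 43.7 CPM (0.70, 0.60 to 0.80). The lower ones were Trim32 (-1.53, -1.92 to -1.15), Trim8 (-1.26, -1.34 to -1.18) and Trim65 (-1.09, -1.27 to -0.92). Trim8, known to modulate cytokine signalling, was the most counted of these, at 196 CPM in CTRL and 82.2 in IRF3/7. With size factors, which moved the median gene from -0.55 to -0.03, Trim8 and Trim65 came inside 2-fold and Trim26 passed it.

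Partners of these members differed unevenly in the same cells. Of 11 genes of the RIG-I pathway 5 were higher and 1 lower in IRF3/7 against CTRL, to be read, like the counts that follow, beside 9.16% higher and 32.2% lower over all genes. Among them Ifih1 (MDA5) was at 50.5 CPM in CTRL and 602 in IRF3/7 (3.58), and Ddx58 (RIG-I), the substrate of Trim25, had a ratio of 3.03 (2.95 to 3.11), while the adaptor Mavs had -1.24 (-1.39 to -1.09). Of 13 interferon signalling genes 7 were higher and 0 lower, among them Irf7, at 69.3 CPM in CTRL, 3170 in IRF3/7, 92.8 in COX2i and 455 in COX2i + 5-AZA. Irf7 was also the gene overexpressed in the cancer cells of IRF3/7, and the part of free RNA in its counts was not tested. Irf3, overexpressed in the same cancer cells, was at 43.0 CPM in CTRL and 44.6 in IRF3/7. Of 4 TRIM proteins with other kinds of symbols tested, 3 were higher and 1 lower. Pml, of nuclear bodies, was at 35.0 CPM in CTRL and 203 in IRF3/7 (2.54, 2.46 to 2.62), Mefv (pyrin) at 57.9 and 242 CPM (2.07, 2.00 to 2.13) and Mid1 at 0.860 and 2.13 CPM (1.31, 0.65 to 1.96). Mid2 had 116 UMIs in CTRL and 1 in IRF3/7 (-5.24, -10.56 to -2.74).

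Of the 3 tested members of the TIF1 group of chromatin corepressors, 1 (Trim28) was at least 2-fold lower in IRF3/7, a share of 33.3% against 32.2% of all genes. The log2 ratio of Trim33 turned to 0.08 under median-of-ratios size factors. Trim28 was at 42.3 CPM in CTRL, 13.8 in IRF3/7, 56.4 in COX2i and 39.9 in COX2i + 5-AZA (-1.62, -1.81 to -1.43 in IRF3/7 against CTRL). Trim24 was at 18, 9.52, 17.5 and 12.3 CPM (-0.92, -1.16 to -0.68), and Trim33, a partner of SMAD4, at 34.7, 25.6, 38.0 and 27.9 CPM (-0.44, -0.59 to -0.29). Trim66 had only 11, 1, 10 and 1 UMIs and was not compared. Against the median of all genes at -0.55, Trim33 lay above the typical gene and Trim24 and Trim28 below it. Of 11 partners in Trim28 repression 6 were lower in IRF3/7 and 1 higher, against 32.2% and 9.16% over all genes, with Uhrf1 at -2.58 (-2.77 to -2.39) and Cbx5 (HP1α) at -2.41 (-2.62 to -2.22). Cells annotated TAM_cycling numbered 1457 in CTRL and 20 in IRF3/7, and their part in these values was not tested.

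Of the 6 members tied to the cytoskeleton or neurons, a list that shares Trim32 with innate sensing, 0 were higher and 3 lower (Trim2, Trim37 and Trim32), against 32.2% lower over all genes. Trim2 was at 3.84 CPM in CTRL, 0.560 in IRF3/7, 2.62 in COX2i and 1.2 in COX2i + 5-AZA (-2.78, -3.86 to -1.87 in IRF3/7 against CTRL), on 10 UMIs in IRF3/7, and over all cells of the libraries its ratio turned to 0.47. Trim37 was at 24.4, 4.03, 32.6 and 17.7 CPM (-2.60, -2.96 to -2.25). Cells of the TAM_cycling class, where Trim37 was highest (44.2 CPM), numbered 1457 in CTRL and 20 in IRF3/7. Among the remaining members, Trim47 was at 33.5, 4.54, 41.3 and 28.2 CPM (-2.88, -3.22 to -2.56), Trim68 at 7.56, 1.96, 5.28 and 4.08 CPM (-1.95, -2.49 to -1.45) and Trim35 at 112, 38.5, 120 and 102 CPM (-1.55, -1.66 to -1.43). Trim59 (-1.32, -1.60 to -1.04) and Trim44 (69.7 CPM in CTRL and 34.8 in IRF3/7) completed the 11, with Trim44 just inside the threshold and Trim46 (-0.98) just outside.

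The 2 other members that were higher in IRF3/7 against CTRL were Trim69, a ligase of centrosomes and microtubules, and Trim17. Trim69 was at 1.01 CPM in CTRL, 7.06 in IRF3/7, 0.927 in COX2i and 5.36 in COX2i + 5-AZA, and its log2 ratio in IRF3/7 was 2.81 (2.34 to 3.29). Trim17 rested on 10, 20, 8 and 45 UMIs in the same order (2.61, 1.45 to 3.87). Trim11 was the nearest below the threshold, at 9.77 CPM in CTRL and 19.4 in IRF3/7 (0.99, 0.79 to 1.19).

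Markers of other cell types also differed between the summed monocytes and macrophages. The 3 neutrophil markers summed to 74.4 CPM in CTRL, 797 in IRF3/7, 18.6 in COX2i and 451 in COX2i + 5-AZA. The 4 markers of non-immune cells summed to 248, 45.2, 332 and 103 CPM, and the 4 NK markers to 0.274, 18.4, 1.74 and 7.15 CPM. No gene of these lists was at 0 in every library, and their part in the TRIM values was not tested. Trim2 and Trim28 were highest in the non-immune class in each of the 4 libraries. Trim24 and Trim47 were so in only some libraries, and Trim30b was highest in neutrophils in CTRL and COX2i + 5-AZA, the libraries with at least 50 of them.

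In COX2i against CTRL, 0 of 42 members reached 2-fold in either direction, against 1.93% higher and 4.7% lower over 11905 genes. The interferon-inducible members had a median log2 ratio of 0.03 and the other members of 0.02. Within classes the picture was less even. In Ctsk_Macro (157 and 380 cells) 5 of 10 interferon-inducible members were at least 2-fold higher in COX2i (4.02% of 9634 genes were), with a median of 0.93, led by Trim30d (1.81, 0.56 to 3.13) and Trim21 (1.33, 0.92 to 1.74). In Myofibrobl (913 and 554 cells) 2 of 11 were higher (4.54% of 11068 genes were) and all 11 lay above 0, with a median of 0.89. The other classes compared had lower medians. In TAM_C1q (2023 and 3199 cells) 0 of 13 were higher and 1 was lower (3.86% of 11273 genes were), with a median of -0.10. In TAM_Spp1 and TAM_cycling 0 of 13 were higher, with medians of 0.01 and 0.08, and in cDC2 0 of 11, with a median of 0.21. Where few genes are this much higher (1.93% in the pooled cells), a count of 0 in 11 or 13 says nothing particular of the members. In Infl_Mono (130 and 93 cells) 1 of 12 was higher (3.7% of 6839 genes were), with a median of 0.05. In the pooled monocytes and macrophages the members nearest to the threshold were Trim59 (0.73, 0.61 to 0.84) and Trim6 on the lower side. Trim59, at 16.9 CPM in CTRL and 27.9 in COX2i, was at 43.6 and 43.2 CPM within the TAM_cycling class, whose cells numbered 1457 in CTRL and 3164 in COX2i. Thus its pooled difference was not seen within the class that holds most of its counts. Of the rest, Trim30b (0.57, 0.41 to 0.74) and Trim21 (0.42, 0.33 to 0.52) were the highest on the interferon list.

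In COX2i + 5-AZA against CTRL, 5 of 42 members were at least 2-fold higher and 1 lower, against 5.65% and 11.3% of 12001 genes, and with size factors 8 were higher and 1 lower, against 6.55% and 9.52%. In COX2i + 5-AZA against COX2i, which differ by 5-azacytidine, 6 of 42 were higher and 1 lower, against 6.16% and 9.77% of 11940 genes, and with size factors 6 were higher and 0 lower, against 7.40% and 7.50%. In the latter, 4 of 13 interferon-inducible members were higher, 0 were lower and all 13 lay above 0 (3680 of 11940 genes did). Their median was 0.54, and 0.29 with the class mix held equal over 5 classes. The other members had a median of -0.43, or -0.13 with that mix, and all genes one of -0.19. Trim30c (1.52, 1.38 to 1.67), Trim30b (1.46, 1.34 to 1.57), Trim6 and Trim30d (1.05, 0.94 to 1.16) were the 4, and Trim69 and Trim17 were the others among the 6. Trim30a at 0.75 (0.70 to 0.81) was the nearest below. Trim2 was the single lower member, at -1.13 (-1.53 to -0.74), and Trim45, at 3.13 CPM in COX2i and 1.58 in COX2i + 5-AZA, was just outside (-0.99, -1.34 to -0.64).

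IRF3/7 against CTRL and COX2i + 5-AZA against COX2i share no library. In both, monocytes made up a larger part of the pooled cells in the first library: 91.3% against 1.83%, and 53.2% against 7.56%. The part of this in the pooled ratios was not tested. The members higher in both were Trim30b, Trim30c, Trim30d, Trim6 and Trim69, 5 of the 41 members with enough UMIs in all 4 comparisons (3.69% of 11687 such genes were), of which 4 were on the interferon list. Within single classes of COX2i + 5-AZA against COX2i, Trim30b reached 2-fold in 0 of 8, with a highest log2 ratio of 0.82. Trim30d did so in 2 of 9 classes, Trim30c in 2 of 5, Trim6 in 2 of 3 and Trim69 in 5 of 5. Trim17 was also higher in both (2.61 and 2.36, 1.26 to 3.66) but had fewer than 20 UMIs in COX2i against CTRL. A further 8, all on the list (Trim14, Trim56, Trim21, Trim34a, Trim12a, Trim12c, Trim30a and Trim25), were at least 2-fold higher in IRF3/7 against CTRL and within 2-fold in the other comparison, as were 4.96% of the 11687 genes. The difference between the comparisons was not tested. At the other end, 6 of the 41 members stayed within 1.5-fold in all 4 comparisons, a smaller share than the 32.6% over all genes: Trim33, Trim62, Trim3, Trim41, Trim13 and Trim39, none of them on the list. This set depends on the scaling: with size factors Trim62, Trim13 and Trim39 passed 1.5-fold in IRF3/7 against CTRL. Trim41, a ligase that binds influenza nucleoprotein, was the flattest of the well-counted ones, at 67.9 CPM in CTRL, 70.1 in IRF3/7, 66.4 in COX2i and 61.0 in COX2i + 5-AZA.

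Because the libraries held different mixes of cells, the same ratios were taken within annotated classes with at least 50 cells in both libraries. For IRF3/7 against CTRL these were Infl_Mono (4335 and 93 cells), cDC2 (390 and 645) and Myofibrobl (172 and 554), a class of non-immune cells left by the sort. The authors drew the classes from the expression of the same cells, so in a class such as Infl_Mono the level of interferon-regulated genes had a part in which cells were counted.

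In Infl_Mono, 1 of 13 interferon-inducible members was at least 2-fold higher in IRF3/7 (6.17% of 9996 genes were), with a median of 0.56. That member was Trim30b, at 82.6 CPM in CTRL and 290 in IRF3/7 (1.81, 1.36 to 2.30). Trim56 (0.97, 0.53 to 1.45) and Trim25 (0.92, 0.71 to 1.13) were next. Trim30a stood at 287 CPM in CTRL and 311 in IRF3/7 (0.12, -0.13 to 0.37). Trim14 was at 260 and 209 CPM (-0.32, -0.58 to -0.05), the opposite direction to the pooled ratio, and Trim12c at 62.0 and 60.7 CPM (-0.03, -0.55 to 0.55). The few CTRL cells of this class thus already held Trim30a and Trim14 near the IRF3/7 level. Among the other members 5 of 25 (20%) were lower, near the 17.3% over all genes, led by Trim47, at 43.4 CPM in CTRL and 2.72 in IRF3/7 (-4.00, -4.79 to -3.16). Trim68 (-2.53, -4.10 to -0.53), Trim65 (-1.53, -2.20 to -0.79), Trim37 (-1.15, -2.80 to 1.18) and Trim36 (-1.05, -2.14 to 0.30) were the rest, and the intervals of the last 2 held 0. Trim69 had 0 UMIs in the 93 CTRL cells and 122 in IRF3/7, at least 1.34-fold higher against a floor of 3 counts.

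In cDC2, the conventional dendritic cells that present antigen to CD4 T cells, 10 of 12 interferon-inducible members tested were higher in IRF3/7 (6.01% of 9225 genes were), with a median of 2.01. Trim30c was at 1.80 CPM in CTRL and 43.5 in IRF3/7 (4.60, 3.29 to 6.27), on 5 UMIs in CTRL. Trim30d (3.11, 2.67 to 3.56), Trim34a (2.78, 2.44 to 3.13) and Trim30a (2.66, 2.40 to 2.94) followed. Trim25 (0.87, 0.72 to 1.01) and Trim26 (0.93, 0.54 to 1.31) were the 2 inside 2-fold. Of 20 other members 4 (20%) were lower in cDC2, against 17.5% of all genes. They were Trim16 (-2.64, -3.89 to -1.61), Trim37 (-1.66, -3.05 to -0.51), Trim28 (-1.38, -2.17 to -0.67) and Trim35 (-1.04, -1.53 to -0.58), and Trim5 was at the 2-fold threshold (1.01, 0.03 to 1.99).

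In Myofibrobl, 11 of 12 interferon-inducible members were higher in IRF3/7 (6.07% of 10778 genes were), with a median of 3.04. Trim34a was at 1.56 CPM in CTRL and 43.0 in IRF3/7 (4.79, 4.03 to 5.65). Trim12a (4.20, 3.07 to 5.58), Trim30a (3.94, 3.53 to 4.38) and Trim12c (3.82, 3.25 to 4.44) followed, and Trim26 (0.70, 0.42 to 0.98) was the exception. Trim14, which was lowest in this class over all libraries at 11.5 CPM, was at 3.94 CPM in CTRL and 41.3 in IRF3/7 (3.39, 2.88 to 3.93). Of the 25 other members only Trim7 (1.56, 0.57 to 2.59) and Trim37 (-1.59, -2.09 to -1.13) passed 2-fold, against 6.07% higher and 12.0% lower over all genes.

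**Figure D3:**
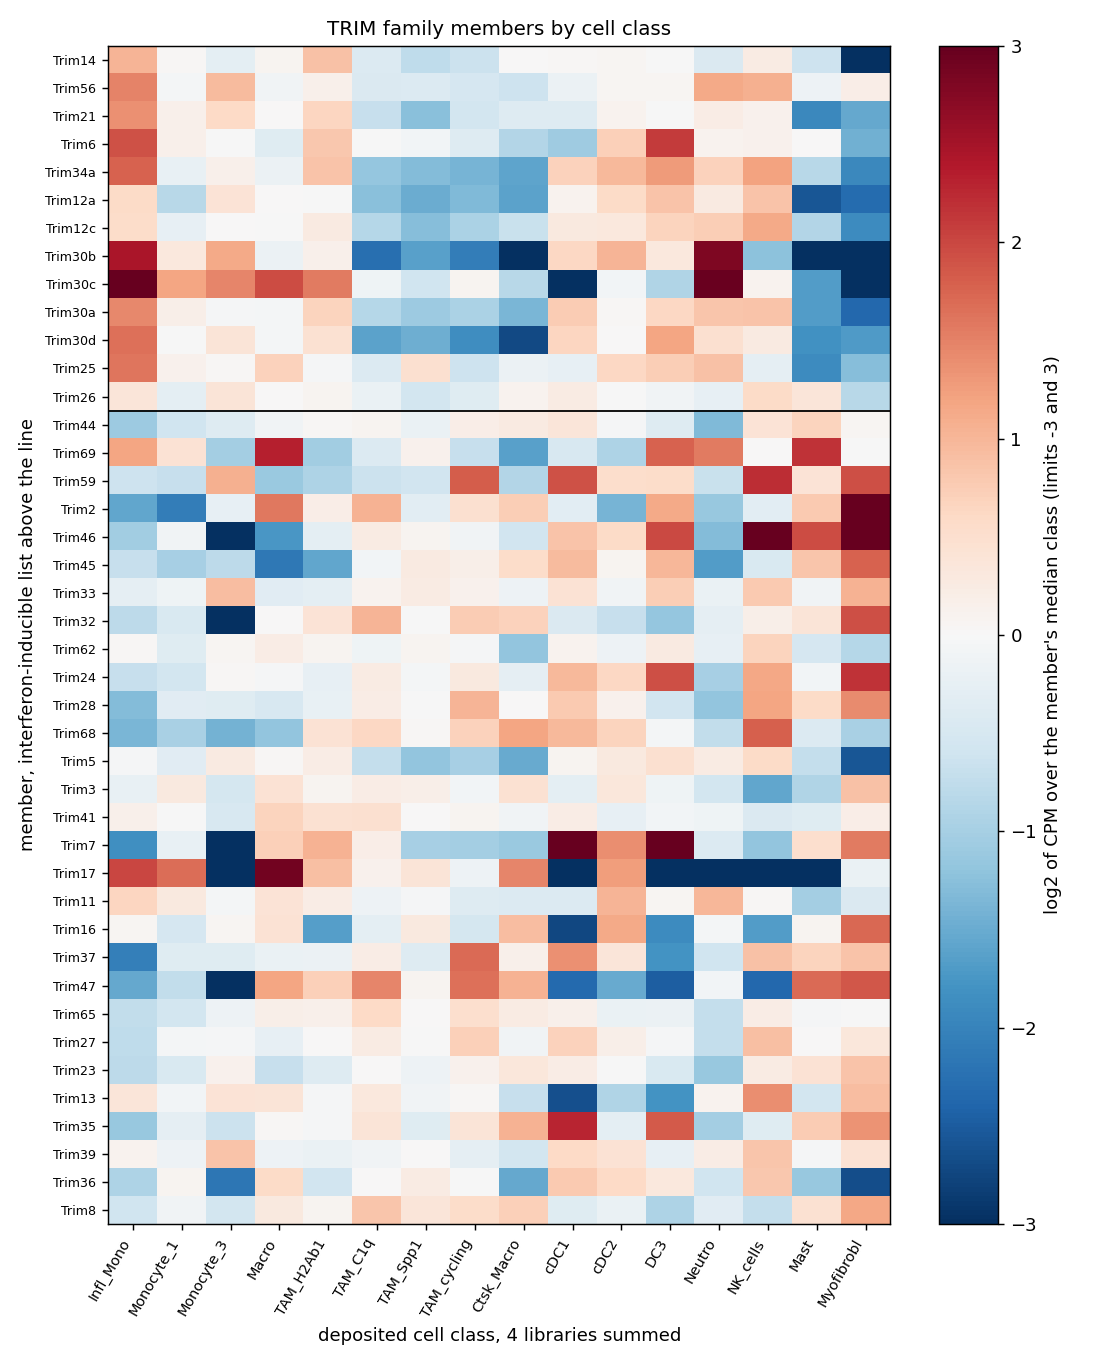
Log2 ratio of 42 members against the median over classes of each member's CPM, for the annotated classes over all libraries, with the colour scale ending at 3 in both directions (Trim66, with a median of 0, is left out). Trim30b and Trim30c stand out in Infl_Mono and neutrophils, Trim2 in Myofibrobl and Trim7 and Trim35 in dendritic cell classes.

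The summed level of the interferon-inducible members was higher in IRF3/7 than in each other library with enough cells in every class that could be compared. A sum weighs most the genes with most counts, so it does not stand for each member. In Infl_Mono Trim25 alone was at 405 CPM in CTRL and 764 in IRF3/7. There 10 of the 13 members lay above 0 and 1 was at least 2-fold higher. In Infl_Mono the sums were 1654 CPM in CTRL (1542 to 1773), 2519 in IRF3/7 (2493 to 2545), 1773 in COX2i (1669 to 1882) and 1391 in COX2i + 5-AZA (1354 to 1428). In cDC2 they were 717, 2367, 726 and 1000 CPM, and in Myofibrobl 139, 758, 203 and 250 CPM. In NK cells, which lacked enough cells in CTRL, they were 1469 CPM in IRF3/7, 502 in COX2i and 642 in COX2i + 5-AZA. The sum of the other members in Myofibrobl lay between 1310 and 1424 CPM in all 4 libraries.

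**Figure D4:**
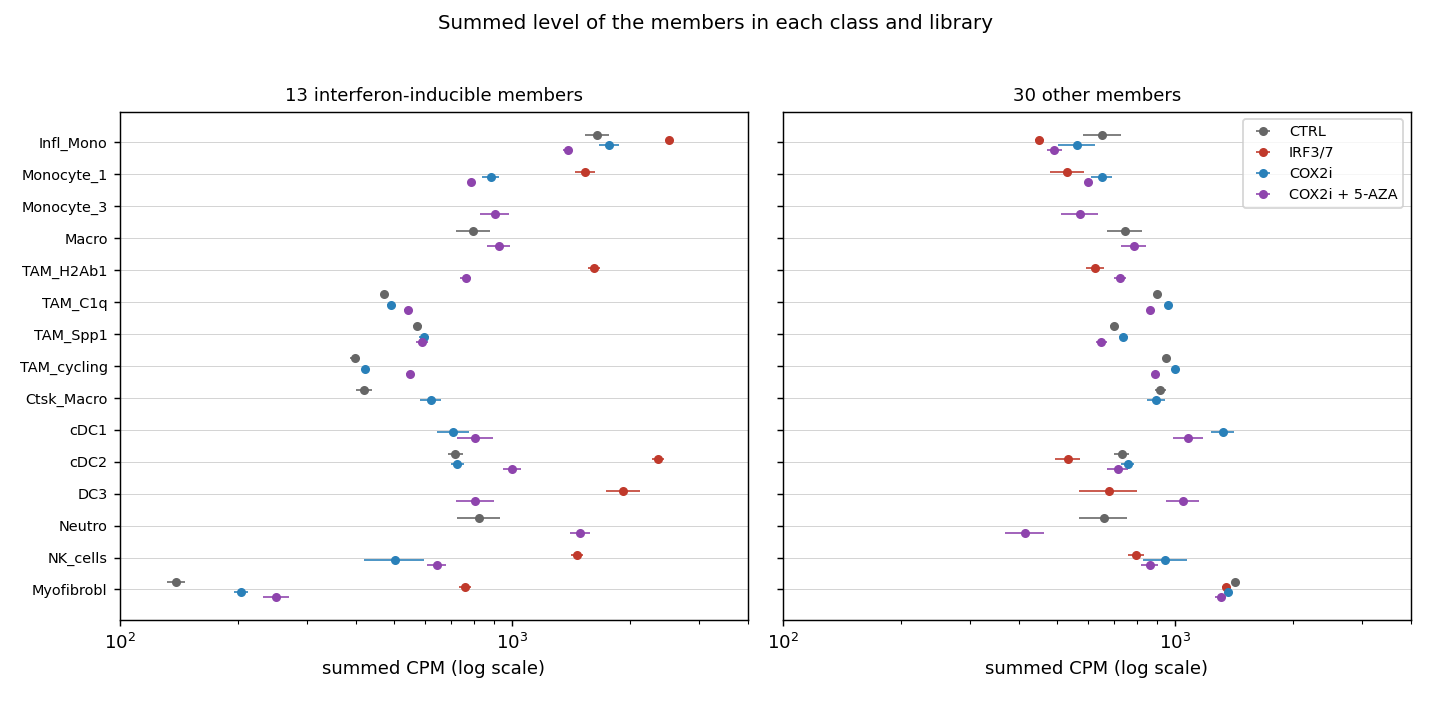
Summed CPM of the interferon-inducible members and of the other members in each class with at least 50 cells, by library, with exact Poisson 95% intervals. The interferon-inducible sum in cDC2 is 2367 CPM in IRF3/7 and between 717 and 1000 CPM in the other 3 libraries.

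Between COX2i + 5-AZA and COX2i the interferon-inducible members had medians from -0.36 to 0.61 within the classes, against 0.54 in the pooled cells. The highest median was in Myofibrobl, where 2 of 11 were at least 2-fold higher (2.98% of 10925 genes were): Trim21 (1.13, 0.68 to 1.58) and Trim34a (1.13, 0.27 to 1.95). In TAM_cycling, the macrophage class with the most cells in these libraries, 2 of 13 were higher (4.1% of 11381 genes were) and 12 of 13 lay above 0, with a median of 0.47: Trim30c (1.58, 1.34 to 1.82) and Trim6 (1.06, 0.28 to 1.85). In TAM_C1q 2 of 13 were higher (4.16% of 11068 genes were): Trim6 (1.72, 0.65 to 2.93) and Trim30c, at 6.02 CPM in COX2i and 16.1 in COX2i + 5-AZA (1.42, 1.07 to 1.78). In NK cells 3 of 10 were higher (7.8% of 8867 genes were), of which Trim30a had an interval above 0 (1.12, 0.28 to 2.10), and Trim12a (1.04, -0.59 to 3.37) and Trim30d (1.01, -0.63 to 3.34) did not, with 3 UMIs each in COX2i. In cDC2 1 of 11 was higher (3.44% of 9468 genes were), Trim30d. In Infl_Mono 0 of 12 were higher (4.08% of 8823 genes were) and 1 of 12 lay above 0, with a median of -0.36. In Monocyte_1 (3640 and 394 cells) 0 of 13 were higher (3.42% of 10492 genes were) and 3 of 13 lay above 0, with a median of -0.13. TAM_Spp1 had 0 of 12 higher, with a median of -0.12, and cDC1 0 of 11, with a median of 0.14. Where few genes are higher, counts of 0 in so few members are no result about them. The neutrophil class could be compared only with CTRL: there Trim30b was at 123 CPM in CTRL (87.1 to 169) and 365 in COX2i + 5-AZA (322 to 412).

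Trim69 was the member with the widest difference in COX2i + 5-AZA against COX2i, at 2.53 (2.13 to 2.96), and against CTRL it was 2.41 (2.00 to 2.85). Of all genes tested, 1.31% were at least as high in the first comparison. It was higher in 9 of 9 classes with at least 50 cells in both libraries. In the 5 classes with at least 20 UMIs its log2 ratio ran from 1.93 to 3.72, and the intervals of all 5 lay above 0. In Myofibrobl Trim69 was at 0.726 CPM in CTRL, 1.78 in IRF3/7, 1.45 in COX2i and 19.2 in COX2i + 5-AZA (14.4 to 25.0). In TAM_C1q it was at 0.682 CPM in CTRL, 0.753 in COX2i and 6.72 in COX2i + 5-AZA, and in TAM_Spp1 at 2.13, 1.32 and 8.54 CPM. In Infl_Mono it was at 8.28 CPM in IRF3/7 (6.88 to 9.89) and 3.81 in COX2i + 5-AZA (2.13 to 6.28). In IRF3/7, 122 of its 126 UMIs in monocytes and macrophages were in Infl_Mono, which made up 4335 of those 5035 cells.

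**Figure D5:**
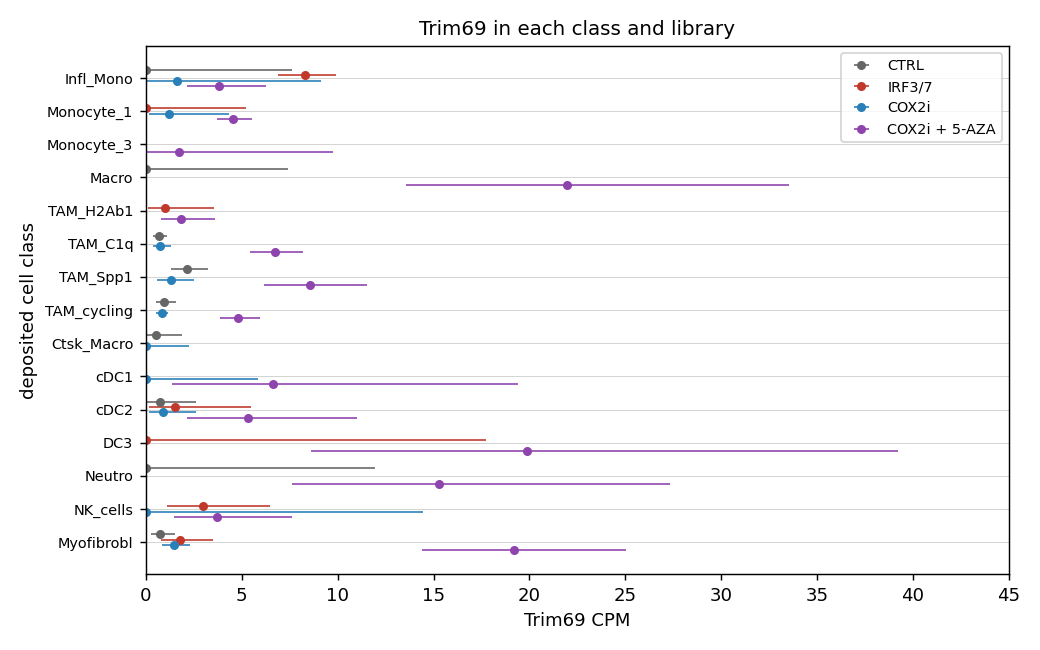
Level of Trim69 in each class with at least 50 cells, by library, in CPM with exact Poisson 95% intervals. The COX2i + 5-AZA points lie above the COX2i points in 9 of 9 shared classes, with 19.2 CPM in Myofibrobl against 1.45.

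Over all libraries several members were concentrated in 1 or 2 classes, read here within each gene. Trim30c was highest in Infl_Mono (130 CPM, 13.3 times its median class), and Trim30b in neutrophils (319 CPM) and Infl_Mono (250 CPM). Trim35 was highest in cDC1 (461 CPM) and the CCR7+ dendritic cells annotated DC3 (336 CPM), 4.90 times its median class, and in cDC1 it was at 507 CPM in COX2i and 389 in COX2i + 5-AZA. Trim7, which binds glycogenin, was highest in DC3 (30.1 CPM, on 23 UMIs) and next in cDC1 (10.9 CPM). Trim2 was highest in Myofibrobl (42.9 CPM, 24.0 times its median class), where it was at 36.6, 65.1, 39.4 and 43.3 CPM in CTRL, IRF3/7, COX2i and COX2i + 5-AZA. Trim46, a microtubule organiser, was highest in NK cells (18.1 CPM) and Myofibrobl (16.6 CPM). Trim24 (66.0 CPM) and Trim28 (88.9 CPM) were highest in Myofibrobl over all libraries, although Trim24 was highest in DC3 in IRF3/7 and COX2i + 5-AZA, and Trim28 was lowest in Infl_Mono (13.5 CPM). Trim59 was highest in NK cells (53.2 CPM) and Trim37 in TAM_cycling (44.2 CPM). Libraries differ in their classes, and within single libraries the order often differed: Trim30c was highest in Infl_Mono in all 4, while Trim30b was highest in cDC2 in IRF3/7 (305 CPM) and in Infl_Mono in COX2i (178 CPM), and Trim37 was highest in TAM_cycling in CTRL only.

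The Trim30 copies were used in different proportions by different classes. In IRF3/7, Trim30b made up 31.7% of the UMIs of the 4 copies in Infl_Mono and 35.2% in cDC2, but 7.21% in NK cells and 4.67% in Myofibrobl. Trim30a made up 34.0%, 40.1%, 67.1% and 62.2% in the same order. Shares depend on probe efficiency, so they are read between classes and not between copies. In neutrophils of COX2i + 5-AZA Trim30b made up 51.2%.

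With every cell thinned to 2000 UMIs, Trim30b was seen in 39.9% of Infl_Mono cells in IRF3/7 (38.3 to 41.6, Clopper-Pearson) and 16.7% in CTRL (9.64 to 26.0). In cDC2 it was seen in 44.3% of cells in IRF3/7, 11.5% in CTRL, 7.81% in COX2i and 13.9% in COX2i + 5-AZA. Myofibrobl cells of IRF3/7, which gave the low end, had it in 1.76% (0.365 to 5.07) and NK cells in 5.38% (3.40 to 8.03). Unthinned, the shares in IRF3/7 were 54.4% in Infl_Mono, 57.9% in cDC2, 11.6% in Myofibrobl and 6.34% in NK cells, with median depths of 3076, 3137, 20862.5 and 2674.5 UMIs. Thinning left out 869 of 4335 Infl_Mono cells in IRF3/7 and 3 of 93 in CTRL. Trim30a was seen in 45.3% of thinned Infl_Mono cells in IRF3/7 (43.6 to 47.0) and 44.4% in CTRL (34.0 to 55.3). The shares in IRF3/7 and CTRL were 66.7% and 42.2% for Trim25, 28.9% and 13.3% for Trim30d, 23.7% and 13.3% for Trim34a and 20.9% and 10.0% for Trim30c. So of the 6 members thinned in this class, the IRF3/7 and CTRL shares were closest for Trim30a. These intervals count cells of 1 library each and say nothing of the spread between tumours.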

How the data were processed

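Gene expression was measured in CD45+ live cells from 4 pooled tumour libraries by a fixed-RNA probe assay multiplexed by probe barcode. Per the study's methods, the authors ran cellranger multi (Cell Ranger 7.1.0 in the submitters' processing notes) with the mm10 probe set and filtered cells on detected genes and on mitochondrial and ribosomal content, and genes on detection. The authors deposited raw UMI counts with no normalisation, with a cell table of library and class. All 34447 cells and 12584 genes were used, and UMI sums equalled the cell table in every cell. Of 29259 droplet barcodes 4830 occurred in 2 or more libraries before the probe barcode was added and 0 after. No doublet caller was run and none is stated for these files, so doublets may remain.

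UMIs were summed by class and library in Python 3.11.15 with numpy 2.4.6, scipy 1.17.1 and pandas 2.3.3. Monocytes were 3 annotated classes and macrophages 6. Depth of that population ranged from 17857479 to 68432495 UMIs, so 3 UMIs equalled 0.0438 to 0.168 CPM. Where no UMI was seen, 3 counts stood in as the floor, and a bound that crossed no change was set to no change. With 1 library per group no test was run, and no design with replicates could be fitted. Named genes were the interferon-inducible and TIF1 members, the 5 highest and 5 lowest members per comparison with at least 200 UMIs, members at 4 times their median class or more and those nearest to 2-fold. The remaining members called at 2-fold, those within 1.5-fold, and Trim8, Trim36 and Trim65 were named after their values were seen. Members, lists and comparisons were chosen with earlier results of these data known. Promoter windows came from RefSeq (GRCm38.p6). The ratio and interval steps were tested on simulated counts.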

Additional observations from a re-analysis of the deposited data

How the results depend on the processing

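The counts of members at least 2-fold higher or lower were recomputed under each alternative. In IRF3/7 against CTRL, 14 members were higher and 11 lower (9.16% and 32.2% of all genes). With the class mix of CTRL, which rests on Infl_Mono alone, 1 was higher and 5 lower (6.17% and 17.3%). The lower count was 7 with median-of-ratios size factors (19.8% of all genes), 4 over all cells (15.9%), 17 at 1.5-fold (48.4%), 5 at 3-fold (18.5%) and 6 relative to the median gene (19.3%), an alternative chosen after seeing the data. Size factors moved the median of all genes from -0.55 to -0.03. In COX2i against CTRL, 1 member was higher and 1 lower at 1.5-fold (6.83% and 10.6% of all genes), and 1 lower with cells thinned to 2000 UMIs (4.08%). In COX2i + 5-AZA against CTRL, the higher count was 8 with size factors and relative to the median gene (6.55% of all genes in both) and 9 at 1.5-fold (9.09%). The lower count was 2 with no minimum of UMIs (12.0%) or with thinned cells (11.6%), 3 over all cells (11.4%) and 6 at 1.5-fold (20.8%). In COX2i + 5-AZA against COX2i, the higher count was 2 at 3-fold (3.44% of all genes). The lower count was 0 with size factors (7.50%), the class mix (5.81%), 3-fold (3.33%) and relative to the median gene (7.09%). It was 2 with no minimum (10.1%) or over all cells (11.9%), 3 with thinned cells (10.6%) and 6 at 1.5-fold (19.3%). The cause of these moves was not tested. In IRF3/7 against CTRL, 3 of the members called at 2-fold changed direction: Trim2 to 0.47 over all cells, and Trim14 to -0.32 and Trim12c to -0.030 with the class mix. The median of the interferon-inducible members there was 2.05, 2.56 with size factors and 0.56 with the class mix. Of 38 member values past 2-fold, 38 kept their direction and 33 stayed past 2-fold with size factors, 37 and 30 over all cells, 34 and 13 of 36 with the class mix and 35 and 34 of 35 with thinned cells. No paired analysis was possible because each group had 1 library, and for the same reason no replicate could be left out. Depth limits Trim66, Trim17 and Trim7 most.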
